A study of Rattus norvegicus with 18 samples.

Results

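The hippocampal formation was compared between male Sprague-Dawley rats deprived of paradoxical sleep and rats that stayed in the home cage. The comparison rests on 6 of the 18 arrays of the series, which measured 4 of its 12 pools of RNA, and every array whose title names this structure and either of these states was used. Deprived rats (PSD) spent 78 h on the flowerpot or multiple platform apparatus, in which small platforms over water wake a rat when muscle tone is lost. Recovery rats (PSR), given here only beside results, had 6 h of sleep after 72 h on the platforms by the sample labels. Control rats (PSC) stayed in the home cage throughout. All rats carried electrodes for EEG and EMG recording and were killed at one clock time, and the labels give weights but no age. Each state had 12 rats in 2 sets of 6, and equal masses of RNA from the right hippocampal formation were pooled within a set. Set 1 was pooled independently for 2 arrays per state, which were averaged on the log2 scale, and set 2 was measured on 1 array. There are therefore n = 2 pools per state, nothing in the labels tells how single rats varied, and stay on the platforms and loss of paradoxical sleep cannot be told apart.

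Paradoxical sleep, also called rapid eye movement sleep, combines muscle atonia with a cortical EEG close to that of waking and with theta rhythm in the hippocampus. The hippocampal formation is needed for spatial and episodic memory and is rich in receptors for corticosterone, the main glucocorticoid of the rat, which is secreted in stress and during forced waking. Its neurons also use immediate early genes, which are transcribed within minutes of strong synaptic activity, and its inhibitory neurons include a class that makes the peptide somatostatin.

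The tissue label was checked on markers. Summed over 19 measured markers of hippocampal fields, the signal was 6399 and 6392 in the PSD pools of sets 1 and 2 and 6689 and 6060 in the PSC pools, against 3742 and 3829 in neocortical PSC pools. Over 15 markers of neocortical layers the sums were 3205 and 3823 in PSD and 3129 and 3895 in PSC, against 5567 and 5854 in neocortical PSC pools. On the first principal component of all 12 pools, with 48.3% of the variance, the set 1 hippocampal pools lay at 37.94 in PSD, 40.06 in PSR and 46.57 in PSC and the set 2 hippocampal pools at 6.94 in PSD, 10.01 in PSR and 0.30 in PSC, against -26.35 to -20.71 in the 6 neocortical pools. The set 2 hippocampal pools thus lay between the set 1 hippocampal pools and the neocortical pools, and this position was not followed up by a test. Signals are linear probe set intensities throughout, and differences are on the log2 scale. Where 3 signals of a state are given, they are those of both set 1 arrays and then of the set 2 array.

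The sets of rats stood further apart than the states. The first principal component of the 6 hippocampal pools carried 61.7% of the variance and separated set 1 from set 2. On it the set 1 pools lay at -21.96 in PSD, -20.9 in PSR and -33.63 in PSC, and the set 2 pools at 25.17 in PSD, 22.86 in PSR and 28.45 in PSC. Between set 2 and set 1, 5710 of 18625 probe sets differed at a limma adjusted p under 0.05 (30.7%), 3171 of them higher in set 2. The log2 signals of technical arrays of a pool correlated at a median r of 0.9793, PSD and PSC arrays of the same set at 0.9766, and arrays of the same state from different sets at 0.9603. The labels do not say what else differed between the sets. Values are therefore given by set, and the fit held the set as a block.

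**Figure D1:**
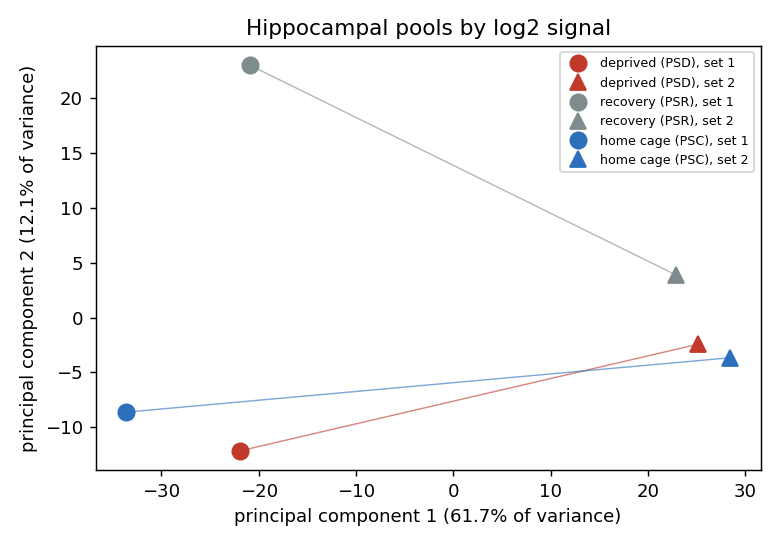
Position of the 6 hippocampal pools on the first (61.7% of variance) and second (12.1%) principal component of their log2 signals, by state (colour) and set of rats (circle, set 1; triangle, set 2), with a line joining the pools of a state. All set 1 pools lie at or below -20.9 on the first component and all set 2 pools at or above 22.86.

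No probe set passed the test between deprivation and home cage. At an adjusted p under 0.05, limma with the set as a block called 0 of 18625 (0%), with a smallest adjusted p of 0.102, shared by 4 probe sets. At an unadjusted p under 0.05 there were 1106, beside 931 expected from the threshold alone. The median standard error of a difference was 0.127. The differences in set 1 and in set 2 correlated at r = 0.0167 across probe sets, which are not independent replicates, and 5195 of 10294 genes (50.5%) had the same sign in both. Probe sets over 0.2 higher in both sets numbered 710 and those over 0.2 lower in both 583, beside 736 that were over 0.2 higher in set 1 and lower in set 2, and 460 the other way. Technical arrays of a pool differed by a median of 0.144 in PSD and 0.193 in PSC. Leaving out the set 1 PSD pool gave 1 call, the set 2 PSD pool 0, the set 1 PSC pool 3 and the set 2 PSC pool 37, while a fit on the 4 PSD and PSC pools alone gave 13. Each fit with a pool left out has 1 pool in that state, which is assumed to vary like the other groups. The genes described here as higher or lower did not pass the test on all pools.

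Counts over lists are read against all 10294 genes, each by its brightest probe set. Of these, 2.29% were higher and 2.55% lower at an unadjusted p under 0.05, 2.38% were over 0.2 higher and 2.79% over 0.2 lower in both sets, and 24.6% lay above 0 and 25.8% below 0 in both sets. All 3 PSD arrays lay above all 3 PSC arrays for 2.96% and below them for 3.09%. The median difference over all genes was -0.003.

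Of the 33 lists, glucocorticoid-responsive genes had the most members higher after deprivation at an unadjusted p under 0.05. Of 30 genes listed, 29 were on the array and 25 passed the filter on low signals. Of those, 23 were above 0 and 2 below, 18 were above 0 in both sets and 2 below 0 in both, 10 were higher and 1 lower at an unadjusted p under 0.05, and 0 passed the adjusted test. All PSD arrays lay above all PSC arrays for 7 of the 25 and below for 1. The median difference was 0.23, and it was 0.32 in set 1 and 0.14 in set 2.

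Gpd1, the cytosolic glycerol-3-phosphate dehydrogenase that links glycolysis to lipid synthesis, had signals of 378 and 371.9 on the set 1 arrays and 414.5 in set 2 of the PSD rats, against 217.6, 218.9 and 253.6 in the PSC rats. Every PSD array lay above every PSC array. The difference was 0.74 ± 0.10 (SE), 1.68-fold, with 0.78 in set 1 and 0.71 in set 2 and a limma adjusted p of 0.102, and a second probe set of the gene differed by 0.51. With 1 of the 4 pools left out, so that a lone pool is assumed to vary like the other groups, the difference lay between 0.67 and 0.82 and the adjusted p between 0.038, without the set 2 PSC pool, and 0.329. Sgk1, a kinase that regulates ion channels and transporters, had 898.7, 874.4 and 690.4 in PSD against 468.7, 512.6 and 511.6 in PSC. These groups did not overlap either, and the difference was 0.85 in set 1 and 0.43 in set 2. The fitted difference was 0.64 ± 0.11 (SE), 1.56-fold, with an adjusted p of 0.273.

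Several classical targets of the receptor were placed the same way with smaller or less even differences. Pdk4, a kinase that holds back pyruvate entry into mitochondria, had 60, 50.5 and 27.9 in PSD against 20.9, 15.9 and 23.3 in PSC, a difference of 0.93 ± 0.28 (SE) that was 1.59 in set 1 and 0.26 in set 2. Fkbp5, a co-chaperone that lowers the receptor's affinity for hormone, had 153, 166 and 115.1 in PSD against 137.2, 139.5 and 85.4 in PSC. Its arrays overlapped across sets but not within a set, with 0.20 in set 1 and 0.43 in set 2, and its other probe set differed by 0.52. Tsc22d3, which encodes the glucocorticoid-induced leucine zipper, had 407.7, 397.6 and 490.8 in PSD against 339.5, 322.9 and 445.5 in PSC, with 0.28 in set 1 and 0.14 in set 2. Mt2A, a metal-binding metallothionein, had 472.1, 451.4 and 271.9 in PSD against 342.9, 363.5 and 229.6 in PSC. Each of these 4 had an adjusted p of at least 0.734.

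Others in the list differed in one set more than in the other. Dusp1, a phosphatase of MAP kinases, had 173.4, 181.2 and 179.7 in PSD against 88.5, 91.7 and 183.4 in PSC, so that its 0.98 in set 1 had no counterpart in set 2, at -0.03. Its dim second probe set lay at -0.08 in set 1 and 0.32 in set 2. Sult1a1, a sulfotransferase, had 170.4, 180.6 and 105.5 in PSD against 97, 76.1 and 97.7 in PSC. Cavin2, a caveolar coat protein, was even across sets at low signal, with 34.2, 34.8 and 35.8 in PSD against 24.5, 23.9 and 24.5 in PSC. Of the 2 members below 0, the 1 that was lower at an unadjusted p under 0.05 was Txnip, which binds thioredoxin and limits glucose uptake. It had 170.8, 189.5 and 198.4 in PSD against 218.2, 227.2 and 267.1 in PSC, a difference of -0.37 ± 0.09 (SE) with an adjusted p of 0.65.

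The receptors themselves differed little. Nr3c1, the glucocorticoid receptor, had 256.3, 203 and 278.5 in PSD against 222.2, 223.7 and 302.3 in PSC, a difference of -0.04 ± 0.10 (SE). Nr3c2, the mineralocorticoid receptor, had 565.4, 507.1 and 320.6 in PSD against 563.9, 477 and 319 in PSC, a difference of 0.03 ± 0.10 (SE). Both had unequal levels between sets and near equal levels between states. Over the 6 measured receptors and partners 0 had an unadjusted p under 0.05.

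**Figure D2:**
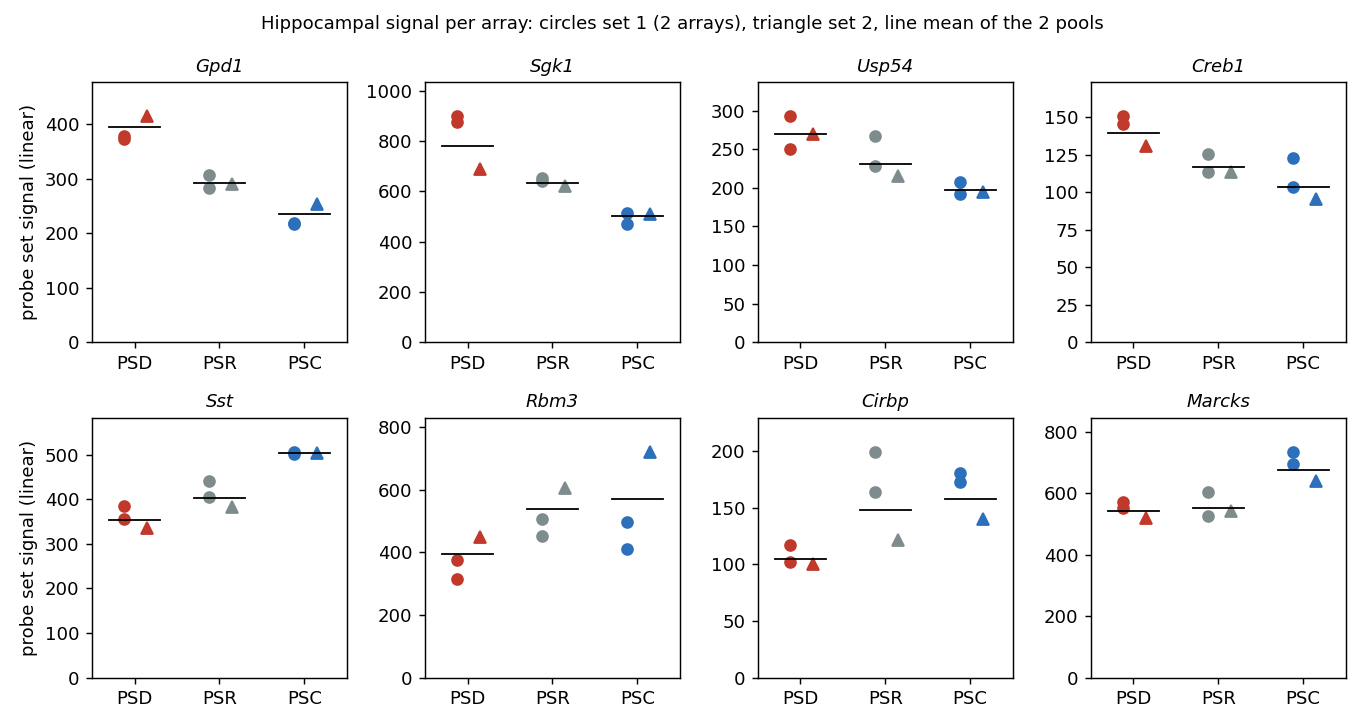
Linear probe set signal (vertical axes from 0) of 8 genes on each hippocampal array of PSD, PSR and PSC rats: circles are the 2 arrays of set 1, triangles the array of set 2, and lines the mean of the 2 pools. Gpd1 lies between 371.9 and 414.5 in PSD and between 217.6 and 253.6 in PSC, while Sst lies between 334.8 and 385.7 in PSD and between 501.3 and 506.6 in PSC.

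Sst, the gene of somatostatin, was lower in both sets. Its signal was 356.7, 385.7 and 334.8 in PSD against 506.6, 501.3 and 503.8 in PSC. The PSC arrays lay between 501.3 and 506.6 across both sets, and every PSD array lay below them. The difference was -0.52 ± 0.07 (SE), 0.699-fold, with -0.44 in set 1 and -0.59 in set 2 and a limma adjusted p of 0.102. In pooled tissue fewer cells of a type and less RNA per cell cannot be told apart. In the neocortex of the same rats the difference was 0.01, and the difference between structures was -0.52 with an unadjusted p of 0.0113 and an adjusted p of 0.979.

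The Sst promoter is shown because transcription of this gene is classically driven through a cAMP response element, bound by the factor CREB. Its gene Creb1 was among those higher here, with a limma adjusted p of 0.625. CREB activity was not measured, and a link between Creb1 and Sst was not tested. The stretch from RefSeq (GRCr8, chr11:90461296-90461575, plus strand) covers 250 bases before the annotated start and 30 from it. The element TGACGTCA is in capitals and begins at base 3 counted from that annotated start. The start in use in these samples was not measured, so the element's place relative to it is not known here.
Sst: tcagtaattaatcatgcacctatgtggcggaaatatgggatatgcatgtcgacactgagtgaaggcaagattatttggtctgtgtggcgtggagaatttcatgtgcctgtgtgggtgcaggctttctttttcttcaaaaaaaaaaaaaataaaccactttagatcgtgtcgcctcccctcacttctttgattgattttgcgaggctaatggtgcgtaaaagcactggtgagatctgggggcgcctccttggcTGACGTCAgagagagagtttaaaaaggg
The letters TGACGTCA, which read the same on both strands, are in 1.78% of 33469 promoter windows of this length. Of the 24 genes described by rank, 19 have a promoter entry and 1 holds this motif.

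The neuropeptide list as a whole, Sst included, lay on both sides of 0. Of 21 measured, 8 were above 0 and 13 below, and the median was -0.05. At an unadjusted p under 0.05, 3 were higher, Crh, Pdyn and Chga, and 1 was lower, Sst itself. Npy, which many somatostatin neurons also make, had 305.7, 330.5 and 272.9 in PSD against 354.4, 299.9 and 284.9 in PSC, a difference of -0.05 ± 0.08 (SE). Crh, corticotropin-releasing hormone, had low signals of 15.9, 25 and 34.7 in PSD against 12.5, 12.9 and 21 in PSC, a difference of 0.69 ± 0.22 (SE) with an adjusted p of 0.763. Pdyn, the dynorphin precursor made by granule cells, had 270.3, 298.7 and 256.8 in PSD against 261.6, 241.8 and 205.2 in PSC. Its difference of 0.25 ± 0.09 (SE) had an adjusted p of 0.778, and a dimmer probe set lay at -0.15 in set 1 and 0.29 in set 2. Chga, the chromogranin A of secretory granules, had 414.2, 410.5 and 404.3 in PSD against 341.1, 454.1 and 301.3 in PSC, and these ranges overlapped.

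The genes of both cold-inducible RNA-binding proteins were lower. Rbm3, whose protein sustains translation and synapses in the cold, had 377.3, 315.8 and 448.7 in PSD against 497.2, 410.8 and 722 in PSC. Its arrays overlapped across sets and not within either set. The difference was -0.54 ± 0.08 (SE), 0.689-fold, with -0.39 in set 1 and -0.69 in set 2 and an adjusted p of 0.136. With 1 of the 4 pools left out, under the same assumption, it lay between -0.70 and -0.38, and the adjusted p between 0.0433, without the set 1 PSC pool, and 0.361. Cirbp, its close relative, had 117.5, 101.8 and 100.3 in PSD against 180.7, 173.3 and 140.5 in PSC. No PSD array reached a PSC array, the difference was -0.59 ± 0.14 (SE) with an adjusted p of 0.65, and 2 dimmer probe sets of the gene differed by -0.41 and -0.40. These 2 lay at -0.79 and -0.71 in set 1 and at -0.03 and -0.08 in set 2, where only the brightest differed by more, at -0.49. Body or brain temperature is not in the labels.

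Their promoters are shown because Cirbp transcription in mouse cells was linked to a mild cold-response element, TCCCCGCC, set in capitals where it occurs. Both stretches are from RefSeq (GRCr8), 250 bases before the annotated start and 30 from it, for Cirbp at chr7:10189446-10189725 on the minus strand and for Rbm3 at chrX:17020655-17020934 on the plus strand.
Cirbp: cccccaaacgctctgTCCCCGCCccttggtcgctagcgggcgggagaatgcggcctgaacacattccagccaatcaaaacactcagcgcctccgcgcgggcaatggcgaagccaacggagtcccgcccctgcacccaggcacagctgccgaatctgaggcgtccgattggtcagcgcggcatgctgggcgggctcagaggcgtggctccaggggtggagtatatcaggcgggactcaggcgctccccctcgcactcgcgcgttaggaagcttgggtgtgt
Rbm3: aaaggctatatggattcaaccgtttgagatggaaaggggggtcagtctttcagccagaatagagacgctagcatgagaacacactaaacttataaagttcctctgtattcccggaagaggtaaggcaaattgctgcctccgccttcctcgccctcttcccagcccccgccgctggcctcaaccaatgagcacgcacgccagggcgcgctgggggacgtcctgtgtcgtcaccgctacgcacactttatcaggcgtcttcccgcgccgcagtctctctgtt
In Cirbp the element begins 235 bases before the start, and these letters are not in the Rbm3 window on either strand. They are in 4.58% of 33469 windows of this length and in 2 of the 19 ranked genes with an entry. The glucocorticoid receptor half-site TGTTCT, found on either strand in 19.4% of windows, is in 2 of these 19, and the spaced element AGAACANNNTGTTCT is in 0 of 19 and in 0.0149% of windows. None of these motifs overlaps another in letters, except that the spaced element contains the half-site.

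Beyond Gpd1 and Sgk1, 10 genes made up the 12 with the highest moderated t statistics, and for all 12 the PSD arrays lay above the PSC arrays. All 12 were chosen on these same arrays and for the same sign in both sets, so this separation largely follows from the choice. Over all genes, each by its brightest probe set, the share was 2.96%. Usp54, a member of the ubiquitin-specific protease family, had 250.4, 292.7 and 269.7 in PSD against 192.6, 208.1 and 194.9 in PSC, a difference of 0.45 ± 0.08 (SE) with an adjusted p of 0.35. Creb1, the transcription factor activated by cAMP signalling and needed for long-lasting memory, had 145.9, 150.8 and 131 in PSD against 103.3, 123 and 95.3 in PSC. Its difference was 0.43 ± 0.09 (SE), even across sets at 0.40 and 0.46, with an adjusted p of 0.625. Its other, dimmer probe set lay on opposite sides of 0, at -0.11 in set 1 and 0.79 in set 2, with a fitted difference of 0.34 ± 0.27 (SE). Htra1, a secreted serine protease abundant in astrocytes, had 639, 657 and 602.7 in PSD against 545.7, 499.3 and 470.8 in PSC, 1.26-fold.

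Sc5d, a late enzyme of cholesterol synthesis, had 239.1, 260.9 and 200 in PSD against 172.3, 178.7 and 122.8 in PSC, a difference of 0.61 ± 0.13 (SE). Its other probe sets differed by 0.62 and, on the brightest, by -0.05, so the gene's direction depends on the probe set. Gpatch4, a nucleolar G-patch protein, was above 0 on all 4 of its measured probe sets, at 0.63, 0.64, 0.40 and 1.92. On the first of these it had 87.4, 77.9 and 92.2 in PSD against 52.8, 59.7 and 56.5 in PSC. Slc35b1, an ATP carrier of the endoplasmic reticulum, had 100.3, 93.3 and 128.3 in PSD against 82.7, 63.3 and 85.7 in PSC, while its brighter probe set differed by 0.06. Pelo, a factor that rescues stalled ribosomes, had 108.6, 99.7 and 83.7 in PSD against 71.7, 65.2 and 63.9 in PSC. The remaining genes, the small heat-shock protein gene Cryab, the mitochondrial Fundc2 and the chromatin-remodelling subunit gene Smarce1, differed by 0.37, 0.37 and 0.46. The other probe sets of Smarce1 lay at -0.09 and -0.04.

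Among the 12 genes with the lowest moderated t, the PSD arrays lay below all PSC arrays for 8 and overlapped them across sets for 4. These genes too were chosen on the same arrays, and over all genes the share below was 3.09%. Marcks, an actin-binding substrate of protein kinase C at synapses, had 551.5, 571.7 and 521.1 in PSD against 694, 735.8 and 641.1 in PSC. The difference was -0.32 ± 0.06 (SE) with an adjusted p of 0.436, and all 5 probe sets of the gene were below 0, between -0.20 and -0.34. Faim2, which protects neurons from Fas-induced death, had 374.1, 400.9 and 311.4 in PSD against 431.3, 525.2 and 407 in PSC, a difference of -0.34 ± 0.08 (SE). Btbd3, which orients dendrites of cortical neurons in mice, had 97.3, 110.6 and 112.5 in PSD against 123.3, 148.8 and 154.4 in PSC, while its other probe set differed by -0.08. Igdcc4, an immunoglobulin superfamily receptor, had 530.3, 486.2 and 357 in PSD against 537.4, 710 and 500.4 in PSC, and these ranges overlapped.

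Phf20, a subunit of a histone acetyltransferase complex, had 59.7, 35.9 and 74 in PSD against 86.1, 66.8 and 134 in PSC, a difference of -0.78 ± 0.11 (SE) with an adjusted p of 0.102. Its 3 other probe sets were above 0, at 0.09, 0.20 and 0.11, so the gene has no one direction. The same holds for the dim genes Zfp523 and Aebp1, whose named probe sets differed by -0.77 and -0.85 and whose other ones differed by 0.06 and 0.05. Rprm, a cell-cycle inhibitor gene that differed by 1.25 between set 2 and set 1, had 44.1, 50.9 and 100.1 in PSD against 60.5, 54.6 and 173.4 in PSC.

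The largest differences of any size with the same sign in both sets came from dim probe sets. The second named probe set of Gpatch4 had 53.9, 40 and 37.8 in PSD against 10.8, 7.1 and 13.9 in PSC, a difference of 1.92 ± 0.28 (SE) with an adjusted p of 0.102. With 1 of the 4 pools left out, the lone pool again assumed to vary like the other groups, it lay between 1.44 and 2.41, and the adjusted p between 0.0196, without the set 2 PSC pool, and 0.691. Col15a1, a basement membrane collagen gene, had 27.3, 17.3 and 29.8 in PSD against 14.3, 3.3 and 13.6 in PSC. Itga1, an integrin subunit gene whose interval contains the Pelo gene on the RefSeq annotation, had 28.6, 32.5 and 23.8 in PSD against 8, 16.9 and 16.1 in PSC. On the other side, Garin5a had 15.4, 3.5 and 36.4 in PSD against 51.5, 43.3 and 40.8 in PSC, and its difference of -1.42 was -2.69 in set 1 and -0.16 in set 2. With a pool left out it lay between -2.49 and -0.36, and the adjusted p between 0.038, without the set 2 PSC pool, and 0.999. Another probe set of Garin5a differed by -0.43. Ring1 differed by -1.28 ± 0.55 (SE), -0.19 in set 1 and -2.36 in set 2, and by 0.03 without the set 2 PSD pool. Cmip, an adaptor protein gene, had 15.9, 18.5 and 19.1 in PSD against 32.2, 49.6 and 34.5 in PSC. The other probe sets of Cmip, which are brighter, differed by -0.15, with -0.17 in set 1 and -0.13 in set 2, and by 0.14, with -0.11 in set 1 and 0.38 in set 2. Signals under 19.7 lie below the level used to leave out dim probe sets by their mean.

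Activity-regulated genes showed no common direction in the hippocampal formation. Of 39 listed, 36 were on the array and 29 passed the filter, with 16 above 0 and 13 below, 5 higher and 0 lower at an unadjusted p under 0.05, and 10 above and 5 below 0 in both sets. The median was 0.01, with -0.0007 in set 1 and 0.09 in set 2, and between -0.04 and 0.15 with one pool left out, the highest without the set 1 PSD pool. Arc, an immediate early gene of dendrites, had 115.1, 86.8 and 101.6 in PSD against 102.1, 124.9 and 97.2 in PSC, a difference of -0.06 ± 0.10 (SE). Egr1, a zinc-finger immediate early gene, had 535.1, 567.9 and 686.9 in PSD against 559.8, 655.8 and 743.2 in PSC. Fos had 47.2, 55.4 and 86.5 in PSD against 42.4, 30.1 and 78 in PSC, 0.52 in set 1 and 0.15 in set 2, and its arrays overlapped across sets. The 5 at an unadjusted p under 0.05 were Per1, Dusp5, Nr4a2, Dusp6 and Dusp1, of which Per1 and Dusp1 are in the glucocorticoid list too.

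Dusp5, a nuclear phosphatase of ERK, had 61.1, 62.9 and 41.2 in PSD against 46.6, 51.3 and 28.1 in PSC, a difference of 0.45 ± 0.17 (SE) with an adjusted p of 0.785. Dusp6, its cytoplasmic counterpart, had 423.5, 433.9 and 350.9 in PSD against 388.1, 372.8 and 315.2 in PSC. On these brightest probe sets of both genes each PSD array exceeded the PSC arrays of its own set. The other probe sets of Dusp6 differed by 0.11 and by -0.31, the second with 0.40 in set 1 and -1.02 in set 2.

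In the neocortex of the same rats the activity-regulated list had a median of 0.24, with 0.17 in set 1 and 0.30 in set 2, while the glucocorticoid list had a median of 0.23 there as in the hippocampal formation. For single genes the difference between the structures was tested on the hippocampal minus neocortical values of the 6 animal pools. Of 18625 probe sets 0 passed (0%), with a smallest adjusted p of 0.979. At an unadjusted p under 0.05 there were 918, beside 931 expected from the threshold alone. Arc differed by -0.06 in the hippocampal formation and by 0.93 in the neocortex, a gap of -0.99 with an unadjusted p of 0.000384. Egr1 differed by -0.13 and 0.33, a gap of -0.46 with an unadjusted p of 0.033. Fos differed by 0.33 and 0.95, a gap of -0.62 with an unadjusted p of 0.0879. Gpd1 differed by 0.74 and 0.98, and Sgk1 by 0.64 and 0.78, with unadjusted p of 0.113 and 0.273 for the gap. Cirbp differed by -0.59 and -0.08, Rbm3 by -0.54 and -0.41, and Marcks by -0.32 and 0.02. Cmip, by this measure, had a gap of -0.93 with a limma unadjusted p of 0.00121 and an adjusted p of 0.979. That gap is from its dim probe set, with hippocampal PSD signals of 15.9, 18.5 and 19.1, and not from its brighter ones.

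**Figure D3:**
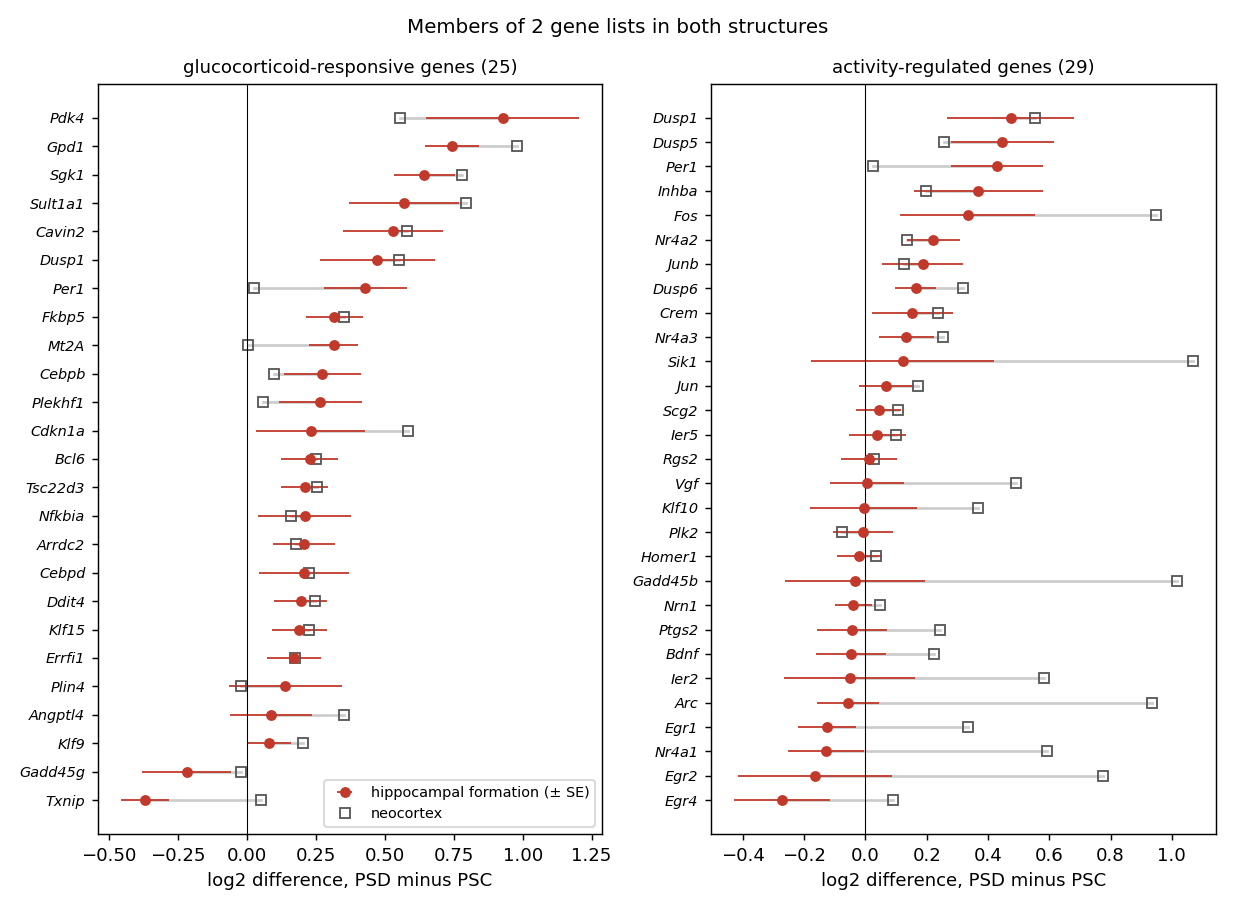
Log2 difference between PSD and PSC for the 25 glucocorticoid-responsive (left) and 29 activity-regulated genes (right) that passed the filter, in the hippocampal formation (filled circles with SE of the fit) and the neocortex of the same rats (open squares). In the left panel 23 of 25 circles lie above 0, while in the right panel 16 of 29 do and Arc lies at -0.06 against 0.93 in the neocortex.

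Clock genes, which time transcription through the day, lay on both sides of 0. Of 20 measured, 9 were above and 11 below 0, with 2 higher and 3 lower at an unadjusted p under 0.05. Per1, a clock repressor that glucocorticoids also induce, had 80.3, 53.2 and 81 in PSD against 57.8, 32.3 and 67.6 in PSC, a difference of 0.43 ± 0.15 (SE). Nr1d1, which encodes the repressor REV-ERB alpha, had 108.3, 94 and 58.4 in PSD against 113.8, 120 and 86.3 in PSC, a difference of -0.39 ± 0.14 (SE). Rora, an activator that competes for the same sites, had 35.2, 39.7 and 31 in PSD against 26.7, 28.7 and 20.5 in PSC. Dbp, an output transcription factor, had 194.2, 222.4 and 254.3 in PSD against 240.7, 255.5 and 296 in PSC, and Bhlhe41, a repressor, had 454.4, 493 and 397 in PSD against 519.4, 571.5 and 452.8 in PSC. For each of these the sign was the same in both sets, and adjusted p values were at least 0.771.

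Chaperones of the endoplasmic reticulum, which fold secreted proteins, lay mostly above 0. All 22 were measured, with 18 above 0 and 4 below, 10 above and 1 below 0 in both sets, and 4 higher and 0 lower at an unadjusted p under 0.05. The median was 0.07, with 0.08 in set 1 and 0.12 in set 2, or 0.11 without the set 1 PSC pool. Hspa5, the master chaperone BiP, had 1215.6, 1202.7 and 1381.5 in PSD against 1155.7, 951 and 1025.3 in PSC. Its arrays did not overlap, and its difference was 0.32 ± 0.09 (SE), 1.25-fold, with an adjusted p of 0.746. Manf, a secreted factor of the same response, had 288.4, 358.3 and 281.6 in PSD against 309.5, 284.9 and 215.2 in PSC, and Pdia4, a disulfide isomerase, had 197.8, 186.1 and 107.4 in PSD against 181.8, 151.7 and 87.3 in PSC. Of 19 cytosolic heat-shock genes 13 were above 0 and 1 was higher at an unadjusted p under 0.05, with a median of 0.08, or 0.12 without the set 1 PSC pool. That one was Cryab, with 287.1, 305.4 and 318.6 in PSD against 240.4, 221.9 and 242.9 in PSC.

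Cholesterol synthesis genes lay mostly below 0. Of 20 measured, 17 were below 0 and 3 above, 14 were below and 0 above 0 in both sets, and 6 were lower and 0 higher at an unadjusted p under 0.05. All PSD arrays lay below all PSC arrays for 6. The median was -0.12, with -0.17 in set 1 and -0.09 in set 2, beside -0.02 in the neocortex. Sqle, squalene epoxidase, had 175.9, 229.3 and 209.9 in PSD against 299.3, 241.1 and 233.9 in PSC. Fdft1, squalene synthase, had 235.7, 211.4 and 220.4 in PSD against 276.3, 272.7 and 240 in PSC, and its difference was -0.21 ± 0.08 (SE). A dimmer probe set of Fdft1 lay above 0, at 0.10 in set 1 and 0.15 in set 2. So did a dimmer one of Sc5d, also an enzyme of this synthesis, at 0.51 in set 1 and 0.70 in set 2. The counts above take only the brightest probe set of each gene. Mvd, mevalonate diphosphate decarboxylase, had 53.3, 40.3 and 54.3 in PSD against 56, 74.5 and 63.5 in PSC. Pmvk, phosphomevalonate kinase, had 176.4, 167.5 and 169.3 in PSD against 209, 179 and 216.1 in PSC. The remaining members at an unadjusted p under 0.05 were Acat2 and Dhcr7, at -0.34 and -0.27. The smallest adjusted p among these 6 was 0.763.

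Oligodendrocyte markers, from cells that synthesise much of the brain's cholesterol, had a median of -0.22 in set 1 and 0.05 in set 2. Of 23 measured, 8 were above and 15 below 0, 1 was above and 7 were below 0 in both sets, and 0 were higher and 3 lower at an unadjusted p under 0.05. Those were Ermn, at -0.24 in set 1 and -0.14 in set 2, Ugt8, at -0.32 and -0.09, and Opalin, at -0.47 and -0.02. Their summed signal was 17820 and 15850 in PSD sets 1 and 2, against 19630 and 14550 in PSC sets 1 and 2. The cholesterol list was below 0 in both sets. The part of oligodendrocyte RNA in the set 1 values was not tested.

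Of 28 genes of innate immunity and the interferon response on the array, 18 passed the filter. Of those, 15 were below 0 and 3 above, and 11 were below and 2 above 0 in both sets. At an unadjusted p under 0.05, 2 were lower and 0 higher. All PSD arrays lay below all PSC arrays for 1 and above them for 2. The median was -0.15, with -0.18 in set 1 and -0.12 in set 2. In the neocortex it was -0.11, with -0.20 in set 1 and 0.08 in set 2. Without the set 2 PSC pool the median was -0.24. C3, the central complement protein, had 53.3, 56.8 and 37.6 in PSD against 93.2, 134.4 and 45.1 in PSC, -1.02 in set 1 and -0.26 in set 2. Psmb9, an immunoproteasome subunit, had 30.9, 18.7 and 24.1 in PSD against 43.8, 32.7 and 31.3 in PSC. Irf7, an interferon regulatory factor, had 35.1, 46 and 40.7 in PSD against 61.2, 44.4 and 52.5 in PSC. Of 13 measured microglial markers 10 were below 0 and 3 were lower at an unadjusted p under 0.05, led by Fcgr2b, an inhibitory Fc receptor, at -0.61 ± 0.19 (SE), while Cd68 and Itgam did not pass the filter. The median of these markers was -0.13 in set 1 and 0.03 in set 2, and their highest member, Tyrobp, lay at -0.07 in set 1 and 0.58 in set 2. Their summed signal was 2751 and 2255 in PSD against 2886 and 2320 in PSC, and the part of microglia in the immune list was not tested.

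Markers of tissue that a dissection can carry along also varied. For red cells, 3 of 3 measured genes were below 0 in both sets: Hbb had 1666.5, 1983.5 and 1048.9 in PSD against 2834.7, 2474.4 and 1348.4 in PSC, Hba-a3 differed by -0.61 and Alas2 by -0.55. The median of choroid plexus markers went opposite ways by set, at 0.97 in set 1 and -0.32 in set 2 over 6 measured genes. Of these, 1 was higher and 0 lower at an unadjusted p under 0.05. That one was Aqp1, a water channel gene, which lay above 0 in both sets, at 0.65 and 0.47. Ttr, transthyretin, which choroid plexus makes in large amounts, had 4444.7 and 4329.1 in PSD set 1 and 436.3 in PSD set 2, against 2628.4, 2796.5 and 1252.8 in PSC. The summed choroid plexus signal was 6182 and 939.3 in PSD against 3657 and 1880 in PSC, and Kl, Otx2 and Prlr did not pass the filter in these data. Meningeal markers summed to 4176 and 2918 in PSD against 3265 and 3808 in PSC. The part of these tissues in single differences was not tested. Astrocyte markers summed to 21120 and 21600 in PSD against 21990 and 20250 in PSC, and of 14 measured 1 was higher at an unadjusted p under 0.05, the connexin gene Gjb6, with 331, 361.3 and 265.2 in PSD against 237, 238.8 and 232.8 in PSC.

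Synaptic and metabolic lists lay near the median of all genes. Of 29 postsynaptic genes 14 were above and 15 below 0, with 3 higher and 1 lower at an unadjusted p under 0.05. Camk2a, the abundant kinase of potentiated synapses, had 582.7, 529 and 682.1 in PSD against 231.2, 412.3 and 601.6 in PSC on its brightest probe set, a difference of 0.51 ± 0.16 (SE), but its 4 probe sets ranged between -0.09 and 0.51. Prkce, a protein kinase C gene, had 858.8, 832.2 and 627.5 in PSD against 662.8, 796.5 and 531 in PSC. Of 26 presynaptic genes 8 were above 0 and 18 below, with 1 higher and 1 lower at an unadjusted p under 0.05. The higher was Bsn, which encodes the active zone scaffold Bassoon, with 1559.5, 1531.9 and 1086.1 in PSD against 1337.5, 1302 and 990.3 in PSC, a difference of 0.18 ± 0.07 (SE). The lower was Slc17a7, the vesicular glutamate transporter, with 1013, 1094.6 and 688.5 in PSD against 1163.5, 1362.6 and 790.7 in PSC, while its other probe set lay at -0.51 in set 1 and 0.13 in set 2. Of 12 ionotropic glutamate receptor genes and 15 GABA signalling genes, 0 reached an unadjusted p under 0.05. Of 38 mitochondrial respiration genes 0 did, and their differences lay between -0.09 and 0.08. Of 10 adenosine genes 1 did, Entpd2, an ectonucleotidase, at -0.25.

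**Figure D4:**
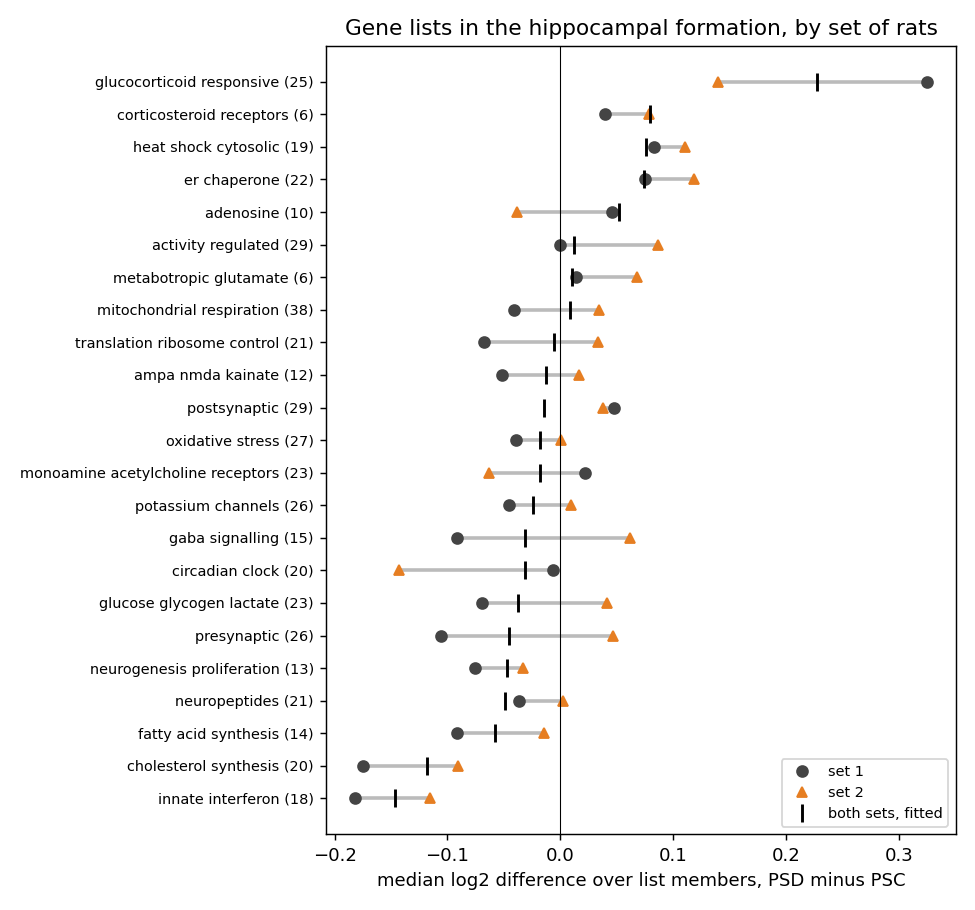
Median log2 difference between PSD and PSC over the measured members of 23 gene lists (number of members in brackets), in set 1 (circles), in set 2 (triangles) and from the fit on both sets (bars), which need not lie between them. Glucocorticoid-responsive genes lie highest, at 0.32 in set 1 and 0.14 in set 2, and innate and cholesterol genes are at the low end in both.

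The differences of the recovery pools use the PSD and PSC arrays of the main comparison, so values are given side by side only. Gpd1 had 306.1, 283.2 and 290.1 in PSR, -0.43 from PSD and 0.31 from PSC. Sgk1 had 653.7, 640.7 and 622.5 in PSR, which were below every PSD array and above every PSC array. Sst had 405.5, 441.7 and 383.2 in PSR, 0.19 from PSD and -0.32 from PSC. Averaged over the sets, Rbm3 and Cirbp lay near the home cage level in PSR, at -0.08 and -0.09 from PSC. In set 2 both lay further below it, Rbm3 at 606.8 in PSR against 722 in PSC and Cirbp at 121.8 against 140.5. Marcks lay near the deprived level, at 0.03 from PSD. Arc had 140.8, 149.5 and 148.1 in PSR, above every PSD and every PSC array. Hbb had 901, 881.6 and 907.5 in PSR, below both.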

How the data were processed

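Pooled total RNA was labelled with biotin as cRNA and measured on Affymetrix rat arrays, per the labels' protocols. The authors deposited linear probe set intensity values made with MAS5, per the submitters' processing notes, whose version and settings are not given in the sources used here. The table was used for 31099 probe sets on 18 arrays. Signals were raised to a floor of 1 and log2-transformed. The 57 control probe sets and the lowest 40% by mean (under a signal of 19.7) were left out, which kept 18625. Names come from the platform annotation, for probe sets with 1 symbol (20832), none for 9831 and several for 436. A fold is on this log2 scale and precision is limited by how few arrays there are.

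The test was limma (3.58.1, R 4.3.3) lmFit and eBayes with an intensity trend over all 12 pools (6 groups, 4 residual and 7.58 prior degrees of freedom), with the set of rats as a block within each structure and Benjamini-Hochberg adjustment over all kept probe sets. The 12 pools were taken as independent, although hippocampal and neocortical pools of a set share rats. The replicate number was used as a block because the series design describes 2 sets of rats. Deviations of same-numbered hippocampal pools from their group means correlated at 0.682 for PSD and PSC, 0.607 for PSD and PSR and 0.639 for PSC and PSR. The difference between structures was tested within animal pools (2 residual and 3.32 prior degrees of freedom). Scripts were tested on simulated data. Figures were drawn with matplotlib 3.10.9.

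Named genes were the 12 highest and 12 lowest moderated t with the same sign in both sets and both group means above the filter level, up to 4 members of each of 33 lists by p, and the 3 largest differences each way. The lists, rules and comparison were chosen with earlier results of these data known. Fkbp5, Cavin2, Sult1a1, Tsc22d3, Dusp1, Arc, Egr1, Fos, Nr3c2, Dbp, Npy, Dhcr7, Mvd and Ttr were named after their values were seen, where the rule did not already name them. Alternatives covered the block, the pools fitted, technical arrays, filter, floor, normalization and leaving out each pool.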

Additional observations from a re-analysis of the deposited data

Results flagged for a closer look

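The median differences of a pair of marker lists lay on opposite sides of 0 in the structures, in both sets of rats, and the gap between structures was not tested. Over 16 endothelial markers the median difference was -0.05934 in the hippocampal formation (-0.03 in set 1 and -0.07 in set 2), against 0.008 in set 1 and 0.02 in set 2 of the neocortex. Over 15 markers of neocortical layers the hippocampal medians were -0.02 in set 1 and -0.05 in set 2, against 0.01 and 0.13 in sets 1 and 2 of the neocortex, although the median of the fitted hippocampal differences was 0.03083.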

How the results depend on the processing

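The count of called probe sets was 0 in the 12-pool fit with the set as a block, and stayed 0 with only the 6 hippocampal pools, a floor of 16, no filter, the lowest 60% left out, quantile normalization, no intensity trend or either technical array of set 1. Without the replicate block it was also 0, with 204 probe sets at an unadjusted p under 0.05. It was 13 with only the 4 PSD and PSC pools, a fit with fewer residual degrees of freedom. Among them were Gpd1, Sgk1, Sst and Rbm3, but also the red cell gene Hba-a3 and a dim probe set of Gpatch4. Phf20 and Sc5d were called too, although their direction depended on the probe set. The count was 1854 with each of the 18 arrays entered on its own and pool membership as random block. There the estimated correlation within pools was -0.55. That fit counts the 2 arrays of a set 1 pool separately, although each state has 2 pools. With a negative correlation it takes their mean as more precise than that of 2 independent arrays. Leaving out 1 hippocampal PSD or PSC pool gave 0 to 37 calls. Such fits assume that the lone pool left in a state varies like the other groups. The cause of these differences was not tested. The count over 0.2 higher and lower in both sets was 2328 and 2486 with no filter, since dim probe sets entered, and 242 and 205 with the lowest 60% left out.

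Some list medians moved by more than their spread, taken as the SD of the set 1 and set 2 medians, which are only 2 values. In set 2 alone, activity-regulated genes had 0.08686, heat-shock genes 0.1103 and endoplasmic reticulum chaperones 0.1187. With 1 technical array of set 1, innate genes had -0.2303 (the first) and chaperones 0.1053 (the second). With a pool left out, activity-regulated genes ranged between -0.04186 and 0.1482, heat-shock genes between 0.08213 and 0.12, chaperones between 0.07473 and 0.1108, and innate genes between -0.2372 and -0.114. Only some of the values in these ranges moved by more than the spread. The glucocorticoid list ranged between 0.1725 and 0.3114 and the cholesterol list between -0.1613 and -0.09864, and neither moved by more than its spread. This spread grows with the disagreement of the sets, so staying within it does not show that a list is stable. The glucocorticoid medians were 0.3247 in set 1 and 0.1397 in set 2, against 0.08318 and 0.1103 for heat-shock genes.

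Of the single genes named, 7 changed sign. With separate arrays, Nr3c1 was 0.005162 and Ttr 0.2871. With the first technical array of set 1, Nr3c1 was 0.04384 and Arc 0.1184, and with the second Npy was 0.03904. With a pool left out, Nr3c1 ranged between -0.1538 and 0.06846, Nr3c2 between -0.01443 and 0.06771, Arc between -0.1776 and 0.0654, Npy between -0.122 and 0.02334, Fos between -0.06272 and 0.7294, Ttr between -1.357 and 0.5298 and Ring1 between -2.584 and 0.03255. MAS5 detection calls were not used here, so whether dim probe sets lay above background is unknown.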

Other observations

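Among lists not described above, oxidative stress genes had a median of -0.02 over 27 measured, with 1 higher at an unadjusted p under 0.05. That one was Mgst1, a microsomal glutathione transferase, with 112.4, 114.6 and 74.1 in PSD against 88.4, 89.6 and 52.2 in PSC, a difference of 0.43 ± 0.13 (SE) with a limma adjusted p of 0.763. Of 23 monoamine and acetylcholine receptor genes 1 was higher at that level, Htr4, a serotonin receptor that raises cAMP, with 51.7, 64.8 and 73 in PSD against 38.1, 39 and 63.1 in PSC. Of 26 potassium channel genes 1 was, Kcna1, with 197.3, 237.9 and 300.5 in PSD against 160, 187 and 278 in PSC. In each of these genes every PSD array exceeded the PSC arrays of its own set. Of 21 genes of translation control 1 was lower at an unadjusted p under 0.05, Eef1a2, the elongation factor of neurons and muscle, with 1176.1, 1337 and 1006.8 in PSD against 1393.9, 1680.1 and 1096.5 in PSC. Of 13 measured genes of neurogenesis and proliferation, and of 14 of fatty acid synthesis, 0 reached that level.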
